A study of Homo sapiens with 2 samples.

Results

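The human major histocompatibility complex (MHC) lies on the short arm of chromosome 6 (6p). The peaks described here are the 273 summits whose position falls in chr6:28477797-33448354 on GRCh37, the extended MHC, out of 105637 summits in the deposited list and 3772 on chromosome 6. Members were chosen by position alone, though with earlier results of these data known. The list comes from chromatin immunoprecipitation and sequencing of A549, a human lung adenocarcinoma line, with Myocardin (MYOCD) stably overexpressed from the lentiviral vector pWPI. The 2 groups of the study, precipitated with an anti-Myocardin antibody or with nonspecific IgG, carry the same overexpression, and each is 1 library. The list ties no summit to either antibody, so a summit is a called peak of this experiment and not a shown binding site of Myocardin. Neither the depth of each library nor whether the stable line is 1 clone or a pool is stated in the labels.

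Class I genes of the MHC encode the molecules that show peptides from inside a cell to cytotoxic T cells, and most nucleated cells express them. Class II genes (HLA-DR, HLA-DQ and HLA-DP) show peptides to helper T cells and are largely restricted to antigen-presenting cells unless interferon gamma induces them. The class III part between them holds complement genes (C2, CFB, C4A, C4B), the tumour necrosis factor genes (TNF, LTA, LTB) and many housekeeping genes, and is one of the most gene-dense stretches of the human genome. Myocardin is a coactivator of the serum response factor that drives smooth and cardiac muscle genes.

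The extended MHC was rich in peaks for its arm. It held 54.9 summits per Mb (exact 95% Poisson interval 48.6 to 61.8), against 28.4 (27.0 to 29.8) in the rest of 6p, which held 1523 summits over 53.7 Mb. The ratio was 1.94 (exact interval 1.70 to 2.20; exact conditional binomial test, two-sided, p = 1.52e-20, Benjamini-Hochberg adjusted p = 1.06e-19 over 7 comparisons). It made up 8.48% of the covered length of 6p and 15.2% of the summits of that arm. The rest of 6p was itself sparse beside the autosomes together, which held 38.0 summits per Mb. These intervals and p-values treat summits as independent and cover counting error only, with no variation between experiments.

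Variation along the arm was therefore set beside them. Of 10 windows of the same length laid end to end over the rest of 6p, outward from the region, none held as many summits, and they ranged from 66 to 256 with a median of 126.5. The highest of these windows was the one that adjoins the region on its centromeric side, with 256 summits against 273, while the one on its telomeric side held 154. Within 1 Mb of the region, the density was 73.0 per Mb on the centromeric side and 47.0 on the telomeric side. Against flanks of 5 Mb on each side in place of the whole arm, the ratio was 1.34 (1.15 to 1.57; exact test, adjusted p = 0.000375). High density thus continued past the centromeric edge of the region. The 1.12 Mb at its telomeric end, before class I, held 27.6 per Mb, near the 28.4 of the rest of 6p.

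**Figure D1:**
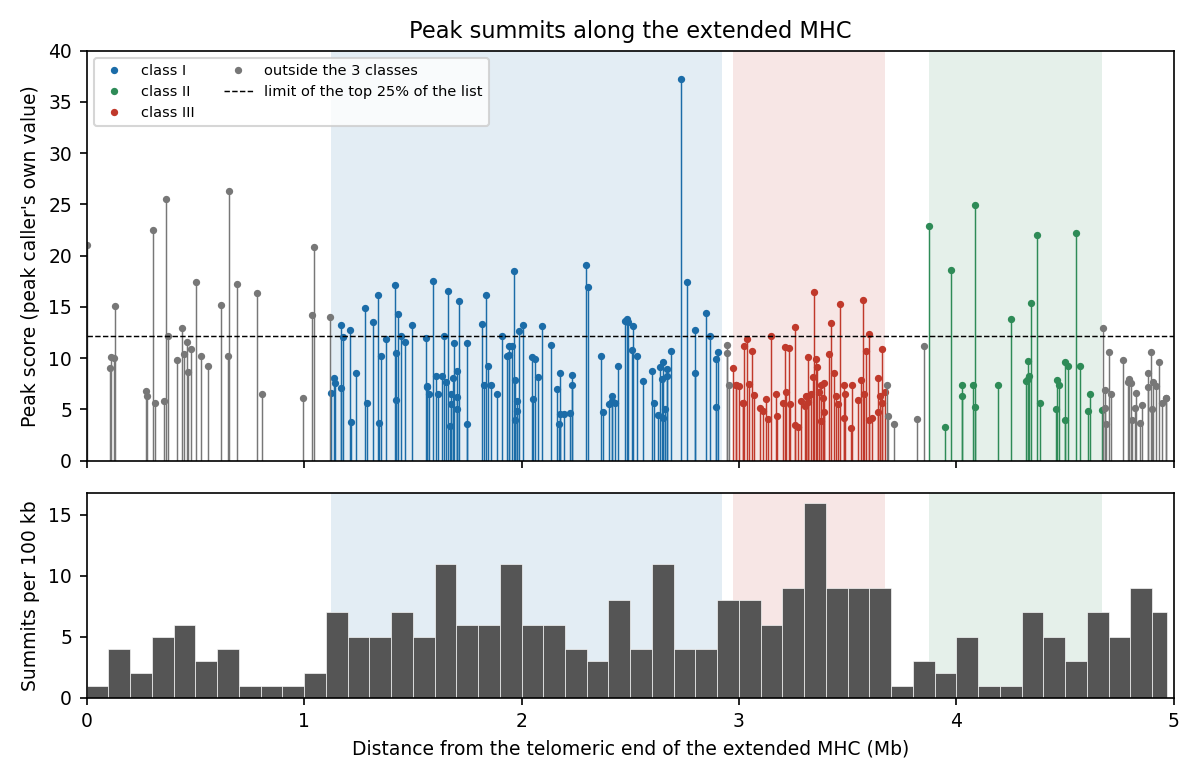
Upper panel: each of the 273 summits as a stem, with its peak score (vertical) against its distance from the telomeric end of the extended MHC in Mb (horizontal); shading marks the class I, class III and class II parts. Lower panel: summits per 100 kb, which reached 16 in class III; the class III stems are crowded and short, and the class II stems sparse with several above 20.

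The 3 classes differed in density, in the order class III, class I, class II. Class III (chr6:31450000-32150000, 0.7 Mb) held 68 summits or 97.1 per Mb (75.4 to 123). Class I (chr6:29600000-31400000, 1.8 Mb) held 113 summits or 62.8 per Mb (51.7 to 75.5). Class II (chr6:32350000-33150000, 0.8 Mb) held 28 summits or 35.0 per Mb (23.3 to 50.6). Each neighbour in this order differed beyond counting error. The ratio of class III to class I was 1.55 (1.13 to 2.11; exact test, adjusted p = 0.00711), that of class II to class I was 0.558 (0.355 to 0.849; exact test, adjusted p = 0.00634), and that of class III to class II was 2.78 (1.76 to 4.48; exact test, adjusted p = 4.75e-06).

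Against the rest of 6p, class III and class I were denser and class II was not distinguishable. Class III carried 3.42 times the density of the rest of 6p (2.64 to 4.36; exact test, adjusted p = 1.88e-16), a ratio that came down to 1.49 over the top 25% of scores (0.595 to 3.10; exact test, adjusted p = 0.347). Class I carried 2.21 times that density (1.81 to 2.68; exact test, adjusted p = 5.84e-13) and 2.57 times over the top 25%. Over the top 10% of scores neither ratio passed. For class II the ratio was 1.23 with an interval from 0.817 to 1.79 (exact test, adjusted p = 0.289). None of 76 windows of the class III length in the rest of 6p reached its 68 summits; their median was 15.5 and their highest 52. Of 29 windows of the class I length, 1 held as many as its 113 summits, and of 66 windows of the class II length 20 held 28 or more. Over all autosomes, however, 222 of 3871 windows of the class III length held at least 68 summits, where windows without a summit were not counted. The class III density was thus high for 6p and less rare elsewhere. Of such windows of the class I length 263 of 1523 held at least 113 summits, and of the class II length 1367 of 3394 held at least 28. At 97.1 summits per Mb class III stood beside chromosomes 17 and 19 as wholes, with 89.2 and 83.1. The autosomes together held 38.0, above the 35.0 of class II.

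The remaining 64 members lay in the 4 stretches outside the classes. The stretch telomeric of class I (1.12 Mb) held 31 summits or 27.6 per Mb (18.8 to 39.2), and that centromeric of class II (0.298 Mb) held 25 or 83.8 per Mb (54.2 to 124). The short stretch between class I and class III held 3 summits, and the one between class III and class II held 5. The drop at the centromeric end of class III was abrupt: the 100 kb bins from 31677797 to 32177796 held 9, 16, 9, 9 and 9 summits, and the next, 32177797 to 32277796, held 1.

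**Figure D2:**
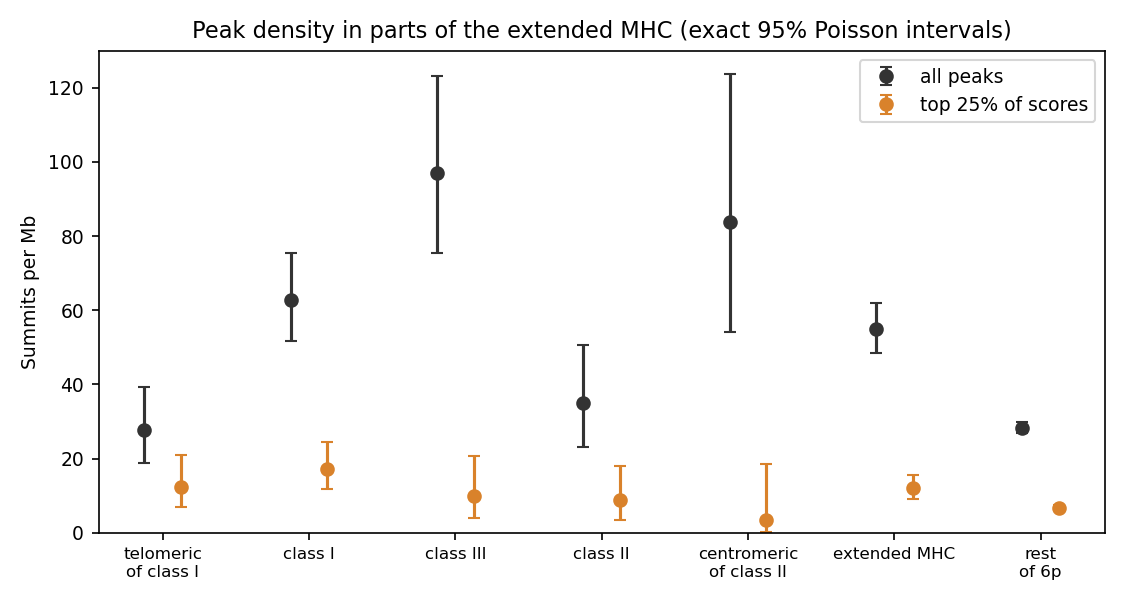
Summits per Mb (vertical) in the 3 classes and the outer stretches named on the horizontal axis, in the whole extended MHC and in the rest of 6p; points are densities and bars exact 95% Poisson intervals, black for all peaks and orange for the top 25% of scores. Class III stands highest of the 3 classes for all peaks at 97.1, while for high scores class I is highest at 17.2.

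The share of high scores in the region was not distinguishable from that in the rest of the arm. The score of a peak comes from the authors' peak caller, and it serves here only to rank peaks within the list. A score of at least 12.2, the upper quartile, defined high peaks; because 1692 peaks share that limit itself, 26.3% of the whole list counted as high. In the extended MHC 60 of 273 summits did (21.98%, exact Clopper-Pearson 95% interval 17.2 to 27.4), and in the rest of 6p 23.6% (21.5 to 25.9). The odds ratio was 0.910 with an interval from 0.656 to 1.249 (Fisher's exact test, two-sided, adjusted p = 0.822 over 7 comparisons). For summits in the top 10% of scores, the density in the region was 1.31 times that of the rest of 6p (0.697 to 2.30; exact test, adjusted p = 0.575), so the excess of peaks did not pass the test among the strongest ones. The region made up 0.258% of the list and held 1 of its 1000 highest scores and none of its 100 highest, counts too small to set it apart.

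Class III combined the highest density of the 3 classes with the lowest median score. Its median score was 6.61 (quartiles 5.63 and 9.33), its highest was 16.5, and 48.5% of its summits (36.2 to 61.0) fell below the lower quartile of the list, against 25.6% (23.4 to 27.9) in the rest of 6p. Only 7 of its 68 summits were high (10.3%, 4.24 to 20.1). The odds ratio to the rest of 6p was 0.371 (0.142 to 0.821; Fisher's exact test, adjusted p = 0.0280) and that to class I was 0.305 (0.106 to 0.768; Fisher's exact test, adjusted p = 0.0280). To class II the odds ratio was 0.349 (0.0919 to 1.31; Fisher's exact test, adjusted p = 0.251), so this pair was not told apart. The first of the 2 calls ended in 5 of 8 alternatives, with adjusted p of Fisher's exact test from 0.0703 to 0.188, and the second in 3 of 6; one of the alternatives that ended both only moved the limit from at least to strictly above 12.2 (adjusted p = 0.0790). Counted from the median of the list upwards, both still passed (Fisher's exact test, adjusted p = 0.0205 and 0.00802).

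No class III summit reached the top 10% of scores, against 10% of the list, and 0 of 68 has an exact upper limit of 5.28% (4.41% by the 3 counts that a count of 0 allows). Its 3 strongest summits lay at 31822017 (score 16.5), 32046898 (15.7) and 31944067 (15.2). The other 4 high ones scored from 12.2 to 13.4, just above the limit. The 7 high summits were spread from 31627141 to 32077054.

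Low scores were seen in some other dense stretches besides class III, but not in all. Among 393 autosomal windows of its length that held 55 to 85 summits, the median share of high peaks was 19.3% (quartiles 13.6% and 26.7%), and 55 of them had a share as low as its 10.3% or lower. Chromosome 22 as a whole, at 53.6 summits per Mb, had 10.9% high peaks, and chromosome 19, at 83.1, had 20.1%. Chromosome 17, at 89.2 summits per Mb, had 26.0%, close to the 26.3% of the list. Summits below the lower quartile of the list made up 45.1% on chromosome 22, 32.7% on chromosome 19 and 24.5% on chromosome 17, against 48.5% in class III. They made up 40% (21.1 to 61.3) in the stretch centromeric of class II. In the 1 Mb beyond the region on its centromeric side they made up 38.4% (27.2 to 50.5).

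**Figure D3:**
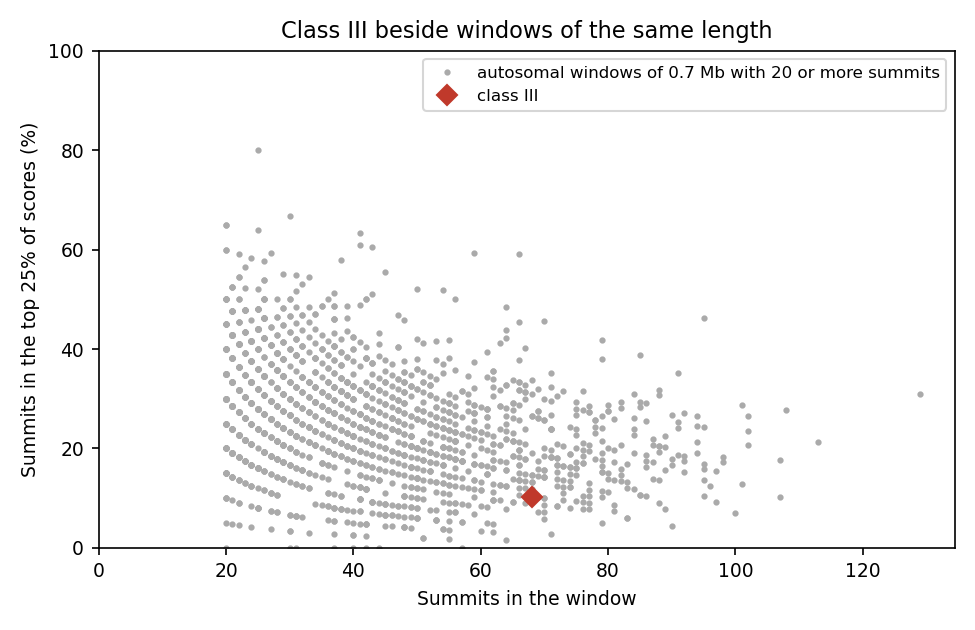
Each grey point is an autosomal window of 0.7 Mb with at least 20 summits, outside the extended MHC, placed by its number of summits (horizontal) and the percentage of them in the top 25% of scores (vertical); the red diamond is class III, at 68 summits and 10.3%. It lies in the lower part of the cloud at its count, with other windows below it.

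Class II had few summits, and several of them were among the strongest of the region. It held 4 of the 10 members scoring 20 or more, at 32562789 (score 24.9), 32353081 (22.9), 33027471 (22.2) and 32847707 (21.98). Such scores were no more frequent in the region, at 3.66% of members, than in the rest of 6p (3.87%) or the list (6.16%). Of the 28 class II summits 5 lay in the top 10% of scores (17.9%, 6.06 to 36.9). This interval includes the 10% of the list and the 7.55% of the rest of 6p, and the odds ratio to the rest of 6p was 2.66 (0.775 to 7.33; Fisher's exact test, adjusted p = 0.104). In the other classes the top 10% held 4 of 113 in class I (3.54%, 0.973 to 8.81) and none in class III. With the top 10% as the measure, the odds ratio of class II to class I was 5.82 (1.16 to 31.7; Fisher's exact test, adjusted p = 0.0364). With the top 25% it was 0.882 (0.288 to 2.43; Fisher's exact test, adjusted p = 1), with 7 of 28 summits or 25% against 31 of 113 or 27.4%. The class II median of 7.86 was below the class I median of 8.90. The contrast thus concerned 5 summits at the top of the range and not the class II peaks as a body.

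Some class II summits lay close together, while long stretches elsewhere in class II held none. Between 32797461 and 32862359 there were 7 class II summits, including the one at 32847707, with scores from 5.64 to 21.98. By contrast 103 kb without a summit separated 32564313 from 32667554, and 73.7 kb separated 32862359 from 32936059. Of its 27 adjacent pairs 25.9% were more than 50 kb apart (11.1 to 46.3), against 3.57% of pairs in class I (0.982 to 8.89) and 0 of 67 in class III. The rest of 6p, at 28.4 summits per Mb, had 19.5%, inside the class II interval. This share depends on the density of each part, and grouping was not tested.

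Class I held the strongest summit of the region, at 31212267 with a score of 37.2 (rank 406 of the list). The nearest other summit lay 26.7 kb away. The next in class I, at 30775452 and 30442568, scored 19.1 and 18.5, so the strongest stood well apart from the rest of its class. Class I as a whole had a median score of 8.90 (quartiles 6.49 and 12.2) and 27.4% high peaks (19.5 to 36.6), and its odds ratio to the rest of 6p was 1.22 (0.767 to 1.90; Fisher's exact test, adjusted p = 0.633). Since class I was dense and not low in score, it carried most high summits per Mb, at 17.2 (11.7 to 24.4), above the 6.71 of the rest of 6p (ratio 2.57, 1.72 to 3.71; exact test, adjusted p = 6.21e-05). None of the 29 windows of its length in the rest of 6p held as many high summits as its 31, with a highest of 20. Counted this way class III had 10.0 and class II 8.75 per Mb, and no pair of classes passed the test (exact tests, adjusted p from 0.267 to 1). With only 7 high summits in each, the ratios to class I had wide intervals. They were 0.581 (0.216 to 1.34) for class III and 0.508 (0.189 to 1.18) for class II.

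The stretch telomeric of class I was about as dense as the rest of 6p, at 27.6 against 28.4 per Mb, with more high scores. Of its 31 summits 14 were high (45.2%, 27.3 to 64.0), against 26.3% of the list and 23.6% of the rest of 6p, a difference that was not among those tested, and 5 of the 10 members scoring 20 or more lay there, at 29133786 (score 26.3), 28840720 (25.6), 28782099 (22.5), 28479827 (21.0) and 29521159 (20.8). It also held the longest stretches without a summit in the region, 188 kb from 29286377 to 29474510 and 143 kb from 28607873 to 28750968. The third-longest, 105 kb from 32191524 to 32296187, lay between class III and class II. At the other end, only 1 of the 25 summits centromeric of class II was high (4%, 0.101 to 20.4), at 33153139 with a score of 13.0, and the next there scored 10.6 at both 33181038 and 33372817. The stretches between the classes held no high summit, with top scores of 11.2 in each.

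**Figure D4:**
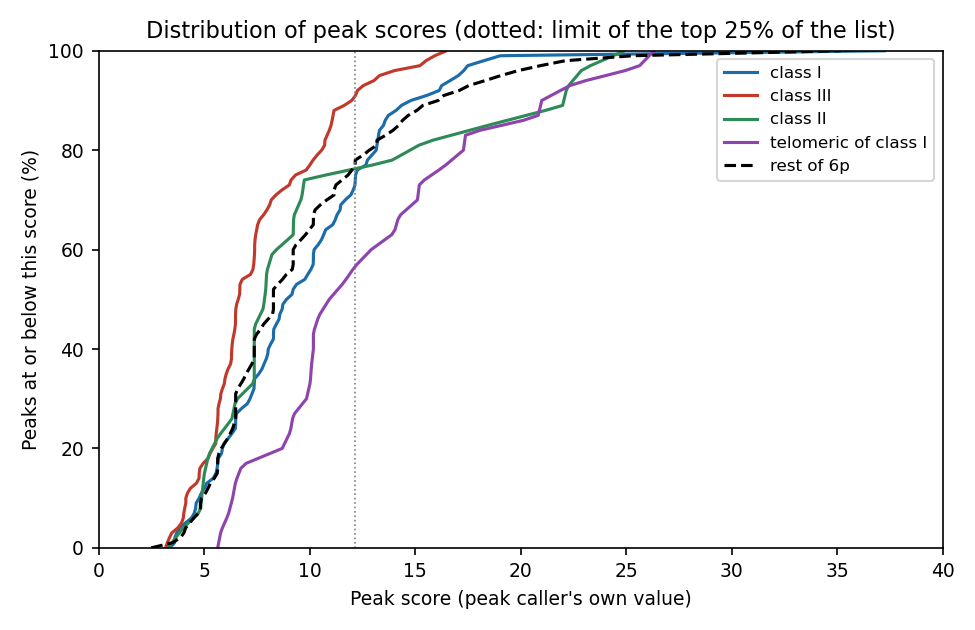
Cumulative percentage of peaks (vertical) at or below each peak score (horizontal) for class I, class III, class II, the stretch telomeric of class I and the rest of 6p. The class III curve rises first and ends at 16.5, the telomeric stretch rises last with a median of 10.9, and class II lies to the left of the rest of 6p over much of the range between its median and upper quartile and to the right of it above, up to near the top.

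The density just inside the centromeric border, 83.8 per Mb, and in the 1 Mb outside it, 73.0, were both above that of the rest of 6p, so this border lay within a crowded stretch. At the telomeric end the first summit inside lay 2.03 kb from the border (28479827, score 21.0) and the nearest outside 7.89 kb from it (28469911, score 22.8). At the centromeric end the last inside lay 7.68 kb from the border (33440670, score 6.07) and the first outside 5.199 kb from it (33453553, score 17.5).

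Summits of the region were close together. Another summit lay within 10 kb of 72.2% of them (66.4 to 77.4), against 56.4% (53.9 to 58.9) in the rest of 6p and 64.1% of the whole list. The share was 80.9% in class III (69.5 to 89.4), 71.7% in class I (62.4 to 79.8) and 60.7% in class II (40.6 to 78.5), and it follows the density of each part by construction. The median distance between adjacent summits was 9.66 kb in class III, 10.6 kb in class I and 21.1 kb in class II, against 16.7 kb in the rest of 6p. Pairs 0.5 to 1.5 kb apart made up 8.82% of adjacent pairs (24 of 272, 5.74 to 12.8) and pairs 2 to 5 kb apart 6.99% (4.26 to 10.7), where the rest of 6p had 6.84% and 8.48%. Both values of the rest of 6p lie within the intervals of the region. Pairs under 0.5 kb apart made up 1.84% (5 of 272, 0.599 to 4.24) and pairs 1.5 to 2 kb apart 3.31% (9 of 272, 1.52 to 6.19). The rest of 6p had 0.592% (0.271 to 1.12) and 1.18% (0.703 to 1.86). Both of its values lie just outside the intervals of the region, but the intervals overlap. Spacing was not tested.

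The region held 29 adjacent pairs under 1.5 kb apart, and in 4 of them either summit was high but in none both. Only 7.62% of members with another summit under 5 kb away were high, so pairs high at both would be few. The absence of such pairs therefore sets nothing apart, and no share for the rest of 6p is given. At 31733649 and 31734345 in class III, 696 bp apart, the scores were 3.46 and 13.1. At 32076292 and 32077054, 762 bp apart, they were 4.01 and 12.3. The 2 pairs with equal scores were 31496761 and 31497553 in class III, at 5.66, and 33440220 and 33440670 at the centromeric end, at 6.07.

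Closeness went with low scores in the region, as it did in the rest of 6p, while within class III scores were low at both distances. In the rest of 6p 13.9% of summits with another under 5 kb away were high and 28.2% of those with none so near. Of members with another summit under 5 kb away 7.62% were high (8 of 105, 3.35 to 14.5), and of those with none so near 31.0% (52 of 168, 24.1 to 38.5). In class I these shares were 8.89% and 39.7%. In class III they were 8.82% (3 of 34) and 11.8% (4 of 34, 3.30 to 27.5), with medians of 6.52 and 6.68. Among summits with none within 5 kb, the odds ratio of class III to class I was 0.205 (0.0472 to 0.679; Fisher's exact test, adjusted p = 0.0385) and that of class III to the rest of 6p 0.340 (0.0862 to 0.976; Fisher's exact test, adjusted p = 0.115).

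Scores that recur across the list were rare in class III. In all, 29.4% of the list carry one of 19 scores that at least 150 peaks share. In the extended MHC 42 of 273 summits did (15.4%, 11.3 to 20.2), against 35.6% (33.2 to 38.1) in the rest of 6p. The share was 2.94% in class III (2 of 68, 0.358 to 10.2), 15.9% in class I (9.72 to 24.0) and 32.1% in class II (9 of 28, 15.9 to 52.4), where 4 summits had the same score of 7.37. The intervals of class III and class II do not overlap. The dense chromosomes 17 and 19 had 10.3% and 8.07%, so few recurrent scores were also seen in other dense parts. Chromosome 22, less dense than these at 53.6 summits per Mb, had 12.9%. Nearby dense parts had shares like that of class III. They were 4% (1 of 25, 0.101 to 20.4) centromeric of class II and 1.37% (1 of 73, 0.0347 to 7.40) in the 1 Mb outside the centromeric border.

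For scale, a RefSeq gene table of another assembly (GRCh38.p14) lists 49 protein-coding genes in order from HLA-F to MICB on the class I side, 58 from DDX39B to NOTCH4 through class III, and 18 from HLA-DRA to HLA-DPB1 in class II. These runs of genes were taken by name and their ends were not aligned with the borders used here, so they are not counts of genes per interval, and no summit was assigned to a gene.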

How the data were processed

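The authors deposited 1 list for the series; per the file headers each row has a position and a peak score. All intervals are 1 bp wide, so rows are summits. The deposited score has no stated unit. Not given in the sources used here are the caller's settings, the aligner, how duplicates were handled and whether IgG served as control. CASAVA 1.4, mm9 and GRCh38.p12 are named in the submitters' processing notes. On GRCh37 0 summits lay past a chromosome end, against 1093 on GRCh38 and 1667 on hg18, so positions are given 1-based in GRCh37 and were not converted. No list row lay on an alternative haplotype or unplaced sequence (0 rows). No GRCh37 annotation or sequence was used here, so genes and motifs at the peaks were not analysed.

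The arm 6p ran from its first summit (144501) to the last (58777169) before the longest stretch without one. Densities carry exact Poisson intervals and shares exact Clopper-Pearson intervals, at 95%. Pairs of densities were tested with the exact conditional binomial test and pairs of shares with Fisher's exact test, each adjusted by Benjamini-Hochberg over 7 comparisons, with a threshold of 0.05. The windows are a description with no test. Autosomal windows without a summit were not counted, and the last window of a chromosome could be shorter than the others. Procedures were tested on simulated independent counts at a constant rate. Density varied along 6p, so the simulation does not show that the intervals and p-values hold there. Peaks named are the 3 highest scores of each part, the 10 highest of the region, the border summits and the ends of the longest stretches without a summit; others (the remaining high peaks of class III, close pairs, the group in class II) were chosen with their values in view. The members and gene lists were chosen with earlier results of these data known. The autosomal windows and the split by distance were chosen after seeing the data. Tools were Python 3.11.15, pandas 2.3.3, numpy 2.4.6, scipy 1.17.1 and matplotlib 3.10.9.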

Additional observations from a re-analysis of the deposited data

How the results depend on the processing

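Of 90 alternative values over 18 results, 58 gave the same direction and call; the cause of a change was not tested unless the setting itself removes summits. Counted over the top 25% of scores, where far fewer summits enter, the density ratio fell short of the test for class III to the rest of 6p (1.49), class II to class I (0.508) and class III to class II (1.14), and class III to class I turned to 0.581. Over the top 10% it fell short for the extended MHC (1.31) and class I (1.04) against the rest of 6p. There class III, with 0 such summits, gave 0 against the rest of 6p, class I and class II, and class II to class I turned to 2.81. Against 5 Mb flanks the density ratio of class II was 0.854, and the odds ratios of high scores were 1.09 for the extended MHC and 0.446 for class III, the latter no longer passing.

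With the top 10% as high, the odds ratio of class I to the rest of 6p was 0.449 and that of class II to class I 5.82; class III to class I and class III to class II were 0, of which the second now passed. With the top 50%, class II to the rest of 6p was 0.735. With classes narrowed by 50 kb the odds ratio of class II to the rest of 6p was 0.969, and class III no longer passed against the rest of 6p (0.462) or class I (0.359). Nor did class III against the rest of 6p with summits within 1.5 kb merged (0.394), with scores strictly above the limit (0.409; 0.334 to class I) or without summits under 5 kb from another (0.340), where the extended MHC gave 1.14. The last 2 settings were chosen after seeing the data. The share of members with a neighbour was 38.5% within 5 kb, 87.9% within 20 kb and 13.3% among high peaks alone, among which 0% of adjacent pairs were 0.5 to 1.5 kb or 2 to 5 kb apart. Scores shared by at least 50 peaks made up 30.04% of members.

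There were no replicates to leave out. No paired analysis was possible because the list holds no values per sample. Tests that need GRCh37 sequence or genes were not run, and read depth is unknown.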
